A study of Mus musculus with 24 samples.

Results

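The response of *mdx* MuSCs to acute injury was read from 6 of the 24 bulk RNA-seq libraries of the study, chosen by their titles. FiMuSCs, freshly isolated muscle stem cells, came from resting hindlimb muscle of *mdx* mice and AMuSCs, activated muscle stem cells, from *mdx* hindlimb muscle 3 days after intramuscular cardiotoxin (CTX, 10 µM), a snake venom toxin that lyses myofibres. Each group held 3 biological replicates. All animals carried the *mdx* mutation of dystrophin on the C57BL/10ScSn background and a nuclear GFP reporter of *Pax7*, and the uninjured group therefore also lacked dystrophin in its muscle. Cells of both groups were sorted for GFP and α7-integrin, leaving out those with CD11b, CD31, CD45 or SCA1, and libraries were made from poly(A) RNA. Cells that had shut off the *Pax7* reporter fell outside the gate, and the cells were selected on α7-integrin. Animals were matched for age and sex, but their age, their sex and a mock injection of the resting muscle are not given in the sources used here. Libraries of wild-type (WT) FiMuSCs and AMuSCs, 3 of each and with the same reporter, were used only to test where the *mdx* response differed.

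MuSCs are the stem cells of skeletal muscle. In resting muscle they lie under the basal lamina in quiescence, held there by Notch, calcitonin receptor and collagen signals, and they express the paired box factor PAX7. After damage they enter the cell cycle, expand as myoblasts, and then either commit through MYOD1 and myogenin, fuse and build sarcomeres, or return to the niche. In *mdx* muscle, fibres without dystrophin break down and regenerate continually, so that a resting *mdx* muscle already contains regenerating areas.

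Counts per gene were tested with edgeR's quasi-likelihood test, and a gene was called at a Benjamini-Hochberg adjusted p under 0.05. AMuSCs had higher levels of 3049 (15.5%) and lower levels of 2308 (11.7%) of the 19650 genes tested, 27.3% together, and 1730 and 1583 of them changed by more than 2-fold. The median log2 fold change over all genes tested was −0.02. Totals ranged from 39619889 to 56673199 counts per library and the biological coefficient of variation between replicates was 0.402. The total of 5357 called genes was 2663 without FiMuSC replicate 2 and 3494 without FiMuSC replicate 3. On principal component 1, which held 61.4% of the variance, the FiMuSCs lay between −41.2 and −38.6 and the AMuSCs at 35.2, 56.2 and 29.1. AMuSCs were less alike among themselves, with Spearman correlations of 0.949 to 0.968 over genes against 0.973 to 0.989 among FiMuSCs. The libraries of the 2 groups did not overlap in 48.6% of all genes tested. Values of single genes are given as CPM, counts per 1000000 counts of a library, with its total scaled within these 6 libraries. After this scaling the values of a library need not sum to 1000000. They are always given for replicates 1, 2 and 3 in that order.

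Both groups held *Pax7* and *Itga7*, the gene of the α7-integrin used in the sort, at high level. This did not hold for all markers of MuSCs, as *Calcr* and *Chrdl2* were far lower in AMuSCs (values below). In both groups a few libraries stood apart in transcripts of other cells. Macrophage markers, 19 genes, summed to 7344 CPM in AMuSC replicate 1 against 289.6 and 575.5 CPM in AMuSC replicates 2 and 3, and to 699.5, 1195 and 2233 CPM in FiMuSCs. The leukocyte antigen *Ptprc* (CD45), against which the cells were sorted, followed the same order at 186, 5.08 and 18.8 CPM in AMuSCs and 19.6, 31.0 and 52.5 CPM in FiMuSCs. None of the 19, 10, 13 and 9 tested markers of macrophages, neutrophils, leukocytes in general and MHC class II antigen presentation was called by edgeR or by DESeq2, and 0 had an unadjusted p under 0.05. Without AMuSC replicate 1, edgeR called 5, 7, 3 and 7 of them lower, in that order of cell types. Endothelial markers, by contrast, summed to 475 to 1174 CPM in FiMuSCs and to 44.9 to 101 CPM in AMuSCs, with FiMuSC replicate 1 the highest, and 12 of 14 were lower. The sort antigen *Pecam1* (CD31) stood at 174, 70.9 and 79.9 CPM in FiMuSCs and 8.07, 14.8 and 18.9 CPM in AMuSCs. Markers of erythroid cells (337 to 624 against 50.4 to 71.8 CPM) and Schwann cells (219.9 to 524 against 74.8 to 119.9 CPM) were likewise lower, with 6 of 7 and 8 of 10 called. The Schwann count was 2 to 4 without FiMuSC replicates 1 or 2 or AMuSC replicates 2 or 3. Of the markers of fibro-adipogenic progenitors, 9 of 15 were lower and 1 higher, the collagen chain *Col1a1*, and of those of pericytes and smooth muscle 8 of 12 were lower and 2 higher (6 and 0 without FiMuSC replicate 2, and 5 and 0 without AMuSC replicate 2). Of 6 tested lymphocyte markers 3 were lower (1, 1 and 0 without FiMuSC replicates 1, 2 and 3), and 6 of 19 markers of mature myofibres were lower and 3 higher. In bulk RNA, fewer cells of a type and less RNA per cell cannot be told apart, and the part that these cells take in the results below was not tested unless a value is given.

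**Figure D1:**
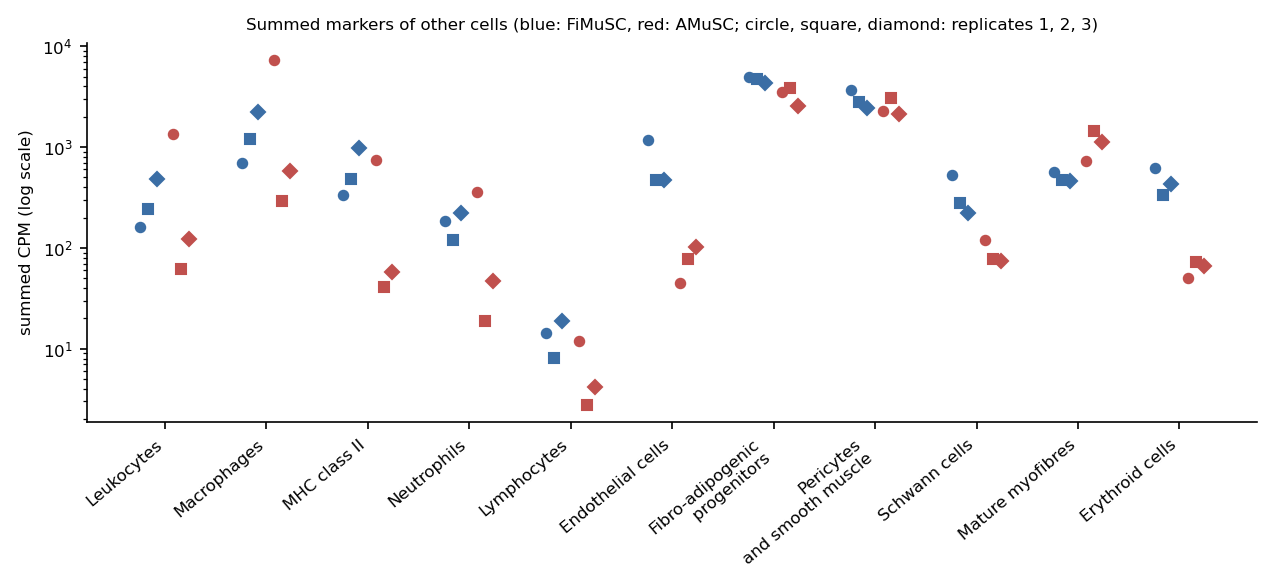
Summed level of the marker genes of 11 other cell types and states in each *mdx* library, in CPM on a log axis, with FiMuSCs in blue and AMuSCs in red. Macrophage markers reached 7344 CPM in AMuSC replicate 1 and at most 575.5 CPM in the other AMuSCs, and endothelial and erythroid markers were lower in every AMuSC library than in every FiMuSC library.

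Genes of quiescence fell in AMuSCs, although *Pax7* itself stayed at a high level. *Pax7*, the factor that defines MuSCs (chromosome 4 of GRCm38, 139737062 to 139833528), was at 2230.3, 2022 and 1666 CPM in FiMuSCs and 909.6, 970.2 and 857 CPM in AMuSCs. All AMuSC libraries lay below all FiMuSC libraries, which was −1.11 as log2 fold change (standard error 0.180, edgeR adjusted p = 0.00473). *Calcr*, the calcitonin receptor that keeps MuSCs quiescent, fell much further, from 243, 177 and 125 CPM to 29.3, 16.1 and 18.8 CPM, a log2 fold change of −3.09 (0.000947). *Chrdl2*, a secreted BMP antagonist, went from 48.3, 73.9 and 68.3 CPM to 2.85, 2.30 and 2.35 CPM, and the surface sialomucin *Cd34* from 276, 194 and 168 CPM to 22.2, 25.5 and 31.5 CPM. The groups were separated in both. *Spry1*, an inhibitor of FGF signalling needed for the return to quiescence, fell as well, at a log2 fold change of −2.10, as did the tenascin *Tnxb* (−4.94) and the basement membrane collagen *Col15a1* (−3.19). In total, 18 of the 36 genes on the quiescence and stemness list were lower and 2 were higher, with a median of −0.69. The 2 higher genes were *Cdkn1c*, a CDK inhibitor, and the integrin *Itga7*, on which the cells were sorted. In its single-cell data the study also used *Cdkn1c* to mark committed progenitors and myocytes as largely post-mitotic. *Cdkn1c* rose from 62.9, 66.0 and 61.8 CPM to 280.2, 406 and 285 CPM, a log2 fold change of 2.35 (adjusted p = 0.000271), with no overlap between groups, whereas *Itga7* rose by only 0.59. Levels of *Cdh15*, M-cadherin, were 607, 587 and 567 CPM and 768, 1101 and 692 CPM (adjusted p = 0.0893). The call of *Itga7* ended without FiMuSC replicate 1, 2 or 3 or AMuSC replicate 3 (adjusted p up to 0.1).

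**Figure D2:**
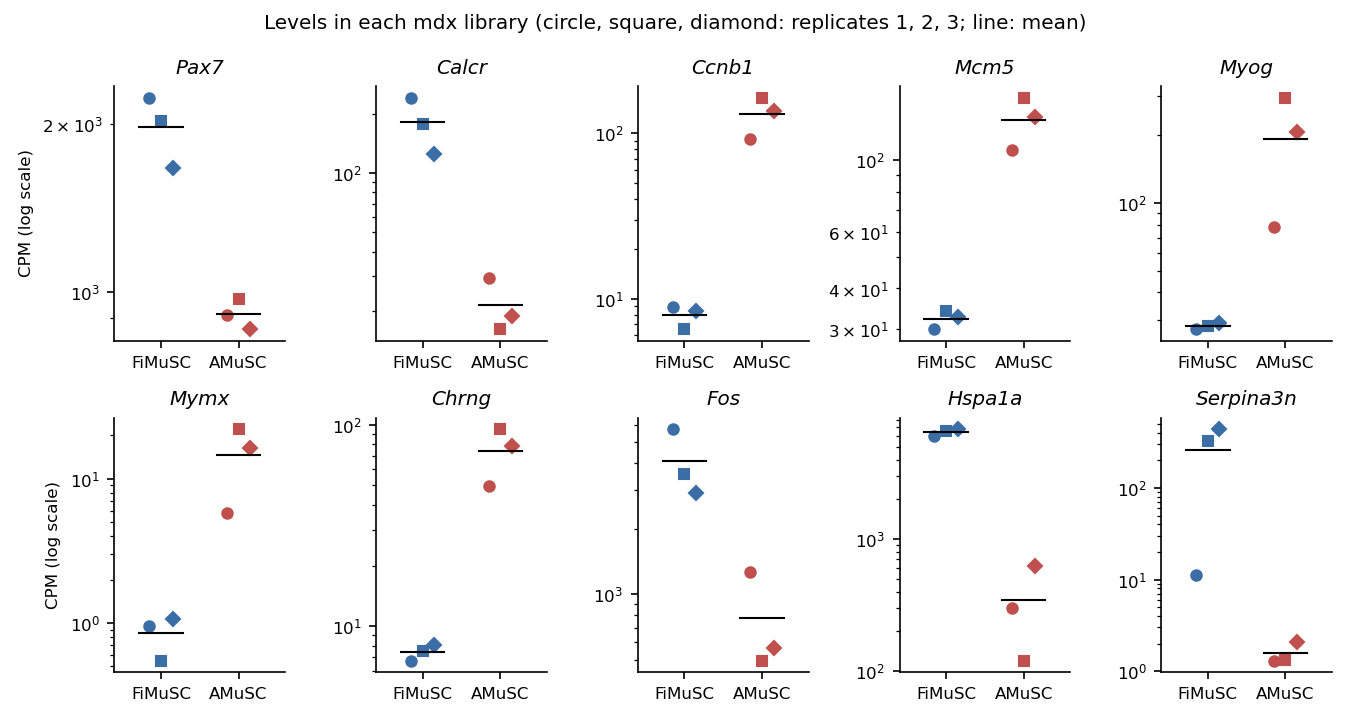
Level of 10 genes in each *mdx* library in CPM, on log axes that differ between panels, with FiMuSCs in blue, AMuSCs in red, a symbol per replicate and a line at the group mean. The log2 fold change was −1.11 for *Pax7*, −3.09 for *Calcr* and 4.04 for *Ccnb1*, and *Serpina3n* was at 11.3 CPM in FiMuSC replicate 1 against 330.0 and 440.0 CPM in the other FiMuSCs.

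Some genes of commitment to differentiation rose, with a wide range among the AMuSC libraries. *Myog*, myogenin, which turns on terminal differentiation, was at 27.3, 28.2 and 29.2 CPM in FiMuSCs and 78.6, 295 and 206 CPM in AMuSCs. Every AMuSC library was above every FiMuSC library, and replicate 1, the library with the highest macrophage markers, was the lowest of them (log2 fold change 2.77, standard error 0.463, adjusted p = 0.00759). *Myod1*, which drives commitment, was at 134, 130.2 and 191 CPM and 142, 311 and 297 CPM and was not called (0.72, 0.134). Without AMuSC replicate 1 it was higher, at a log2 fold change of 1.01 (adjusted p = 0.012). *Myf5*, expressed in most quiescent MuSCs, fell from 405, 285 and 255 CPM to 210.4, 191 and 142 CPM (−0.80). The call of *Myf5* ended without FiMuSC replicate 1, 2 or 3 or AMuSC replicate 2 or 3 (adjusted p up to 0.105). *Rbm24*, an RNA-binding protein of muscle splicing, rose by 2.58. Over the commitment list, 7 of 21 genes were higher and 4 were lower (5 and 2 without FiMuSC replicate 2), the lower ones being *Myf5*, the deacetylase *Hdac11* and the inhibitors of differentiation *Id1* and *Id3*. The call of *Hdac11* ended without FiMuSC replicate 1 or 2 or AMuSC replicate 2 or 3 (adjusted p up to 0.105).

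Transcripts of both proteins of the myoblast fusion machine rose from a very low level. *Mymx*, myomixer, was at 0.954, 0.547 and 1.07 CPM in FiMuSCs and 5.76, 22.1 and 16.3 CPM in AMuSCs, a log2 fold change of 4.09 (adjusted p = 0.00247). *Mymk*, myomaker, went from 3.79, 2.46 and 2.86 CPM to 6.82, 35.8 and 27.0 CPM (2.93, 0.0143), again with the lowest AMuSC value in replicate 1. The call of *Mymk* ended without FiMuSC replicate 2 or 3 (adjusted p up to 0.06). The membrane repair protein *Myof* rose from 143, 160.1 and 169 CPM to 454, 525 and 563 CPM, here with AMuSC libraries close together. In all, 5 of 18 fusion genes were higher and 3 lower.

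Among sarcomere and acetylcholine receptor genes of developing muscle, 12 of 30 were higher and 2 lower, with a median of 0.94 (8 and 1 without FiMuSC replicate 2). The embryonic receptor subunit *Chrng* rose from 6.72, 7.51 and 8.03 CPM to 49.5, 95.3 and 78.7 CPM and the subunit *Chrnd* from 7.54, 8.35 and 8.68 CPM to 55.5, 129 and 105 CPM, log2 fold changes of 3.33 and 3.56 (adjusted p = 0.000251 and 0.000465). *Tnnt2*, the cardiac troponin T of embryonic muscle, rose by 3.25. *Myh3*, the embryonic myosin heavy chain, was at 17.6, 3.36 and 5.98 CPM and 18.3, 69.1 and 81.4 CPM and was not called (2.65, 0.0618). Markers of mature myofibres were mixed, with 6 of 19 lower, 3 higher and a summed level of 462 to 570.0 CPM in FiMuSCs and 719 to 1442 CPM in AMuSCs. Much of the AMuSC sum came from 2 of the higher ones, *Eno3* and *Actn3*. Their means rose from 42.3 and 125.8 CPM to 394 and 340 CPM. Of the lower ones, *Ckm*, muscle creatine kinase, fell from 32.2, 27.6 and 24.9 CPM to 1.27, 3.26 and 2.59 CPM, and the fast myosin *Myh4* from 28.5, 20.4 and 20.5 CPM to 0.587, 0.624 and 1.52 CPM, so that no library of one group reached the other (−3.57 and −4.66). Whether their RNA in FiMuSCs comes from MuSCs was not tested.

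Genes of the cell cycle rose together. All 48 tested genes of mitosis and kinetochores were higher, from a log2 fold change of 0.75 for the spindle checkpoint gene *Bub3* to 4.04 for *Ccnb1*, cyclin B1, with a median of 3.31. *Ccnb1* (chromosome 13, 100778650 to 100786570) was at 8.85, 6.51 and 8.38 CPM in FiMuSCs and 92.0, 164 and 135 CPM in AMuSCs (standard error 0.260, edgeR adjusted p = 0.000148). Its partner *Cdk1*, the kinase that starts mitosis, went from 11.1, 10.2 and 10.0 CPM to 75.9, 131 and 98.2 CPM. *Mki67*, the Ki-67 protein of cycling cells, went from 47.0, 47.4 and 56.9 CPM to 411, 473 and 588 CPM. These groups lay far apart, and replicate 1 was the lowest AMuSC library in each. The kinases *Plk1*, *Nek2* and *Aurkb* rose by 3.91, 3.83 and 3.01, and the centromeric histone *Cenpa* by 2.93.

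DNA replication genes rose by a smaller amount, with 46 of 49 higher, none lower and a median of 1.70. *Mcm5*, a subunit of the replicative helicase, was at 29.9, 34.1 and 32.6 CPM in FiMuSCs and 107, 157 and 136 CPM in AMuSCs (2.05, 0.000333). *Cdc6*, which loads that helicase, went from 5.30, 4.82 and 4.20 CPM to 15.8, 24.6 and 26.6 CPM, and the sliding clamp *Pcna* from 80.6, 98.5 and 99.9 CPM to 179, 232 and 196 CPM. All 3 genes were separated between groups. The remaining 3 members, the origin subunit *Orc6*, the polymerase subunit *Pold3* and the fork protein *Timeless*, had log2 fold changes of 0.12, 0.13 and −0.04 and were not called. Of 26 genes of G1 control, 13 were higher and 2 lower. *Ccne1*, cyclin E1, rose from 6.45, 3.93 and 4.46 CPM to 29.9, 56.9 and 45.7 CPM, while *Ccnd1*, cyclin D1, had 216, 140.1 and 144 CPM and 188, 353 and 323 CPM and was not called (0.79, 0.0724). The repressors *E2f8* and *E2f7* and the activator *E2f1* rose by 3.28, 3.00 and 1.85. The p53 target *Cdkn1a*, p21, was at 79.1, 164 and 175 CPM and 161, 312 and 246 CPM and was not called (0.15), and of 20 p53 targets 10 were higher and 5 lower (6 and 2 without FiMuSC replicate 2). DNA repair and checkpoint genes were higher in 24 of 32, among them *Brca1* (2.57) and the checkpoint kinase *Chek1* (1.82).

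The promoters of these 2 gene groups differ in how often they hold some motifs, and 4 are shown because their genes carry the cell cycle result. The letters are from RefSeq on GRCm38.p6, 250 bases before to 50 after the start of the gene, 5′ to 3′ along the gene. In *Ccnb1* (chr13:100786437-100786736, minus strand) and *Cdk1* (chr10:69352863-69353162, minus strand) the capitals mark the CCAAT box and, in *Cdk1*, also the cell cycle homology region (CHR). In *Mcm5* (chr8:75109259-75109558, plus strand) and *Cdc6* (chr11:98907901-98908200, plus strand) they mark the E2F motif. Other motifs were left unmarked: *Cdk1* also holds an E2F match (TTGGCGC) and *Mcm5* also holds CCAAT boxes, both in lower case.
Ccnb1: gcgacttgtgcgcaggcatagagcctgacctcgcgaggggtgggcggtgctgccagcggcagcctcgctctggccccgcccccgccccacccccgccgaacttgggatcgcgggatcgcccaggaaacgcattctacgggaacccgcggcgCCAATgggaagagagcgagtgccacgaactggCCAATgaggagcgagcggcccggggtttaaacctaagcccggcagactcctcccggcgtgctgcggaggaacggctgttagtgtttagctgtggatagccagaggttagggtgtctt
Cdk1: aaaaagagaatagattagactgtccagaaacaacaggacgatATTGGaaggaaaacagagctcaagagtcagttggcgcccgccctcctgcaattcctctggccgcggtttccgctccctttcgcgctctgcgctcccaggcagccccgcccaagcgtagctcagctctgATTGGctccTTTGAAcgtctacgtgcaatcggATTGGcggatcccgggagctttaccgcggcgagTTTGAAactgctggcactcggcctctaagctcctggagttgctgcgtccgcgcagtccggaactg
Mcm5: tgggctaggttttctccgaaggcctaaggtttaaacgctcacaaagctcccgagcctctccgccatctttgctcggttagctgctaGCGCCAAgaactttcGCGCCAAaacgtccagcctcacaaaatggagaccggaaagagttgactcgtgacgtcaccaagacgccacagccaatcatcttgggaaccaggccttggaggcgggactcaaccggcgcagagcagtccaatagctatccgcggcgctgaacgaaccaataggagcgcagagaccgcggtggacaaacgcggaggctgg
Cdc6: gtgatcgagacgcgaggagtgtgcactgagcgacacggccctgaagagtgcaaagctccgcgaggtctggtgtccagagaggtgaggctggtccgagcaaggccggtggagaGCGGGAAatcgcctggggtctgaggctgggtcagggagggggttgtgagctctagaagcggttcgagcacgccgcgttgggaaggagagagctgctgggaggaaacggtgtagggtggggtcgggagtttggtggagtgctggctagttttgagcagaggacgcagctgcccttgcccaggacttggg
Motifs were searched on both strands, TTTGAA for the CHR, CCAAT for the CCAAT box, and TTCCCGC or TTGGCGC for E2F. The CHR was in 75.0% of the 40 mitosis promoters found in the reference, against 12.5% of 40 replication promoters, 12.9% of the 12354 promoters of tested genes and 18.1% of all 27025. The CCAAT box was in 75.0%, 62.5%, 38.4% and 37.9% of the same sets, and also in 65.2% of 23 repair and 75.0% of 16 clock promoters. E2F motifs were in 17.5% of mitosis and 52.5% of replication promoters, in 60.9% of 23 repair promoters, and in 11.4% of promoters of tested genes and 6.93% of all. The motifs were chosen after the lists' results were known, and a match is a description of the sequence only.
For the muscle and clock genes, a promoter with an E-box of each type is shown in the same way, picked after the values were seen. Capitals mark CAGCTG in *Chrng* (chr1:87205561-87205860, plus strand) and CACGTG in *Per1* (chr11:69098699-69098998, plus strand), both of which read alike on either strand.
Chrng: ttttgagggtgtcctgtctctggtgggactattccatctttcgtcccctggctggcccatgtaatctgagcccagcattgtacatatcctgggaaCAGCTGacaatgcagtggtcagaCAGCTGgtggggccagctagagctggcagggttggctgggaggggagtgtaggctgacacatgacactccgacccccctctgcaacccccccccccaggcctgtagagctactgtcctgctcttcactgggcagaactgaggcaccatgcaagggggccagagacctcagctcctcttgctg
Per1: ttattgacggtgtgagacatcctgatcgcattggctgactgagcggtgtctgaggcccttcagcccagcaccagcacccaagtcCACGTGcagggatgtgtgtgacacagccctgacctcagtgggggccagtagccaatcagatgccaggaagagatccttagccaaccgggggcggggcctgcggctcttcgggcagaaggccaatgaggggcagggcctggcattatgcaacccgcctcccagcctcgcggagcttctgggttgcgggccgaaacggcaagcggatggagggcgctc
CAGCTG was in 46.2% of 26 promoters of the sarcomere list, 15.6% of promoters of tested genes and 16.1% of all, and CACGTG in 31.2% of 16 clock promoters, 9.58% of promoters of tested genes and 7.24% of all. Over all genes called higher, 14.1% of 2277 promoters held the CHR and 16.3% an E2F motif, against 10.4% and 10.0% of 1637 promoters of genes called lower.

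**Figure D3:**
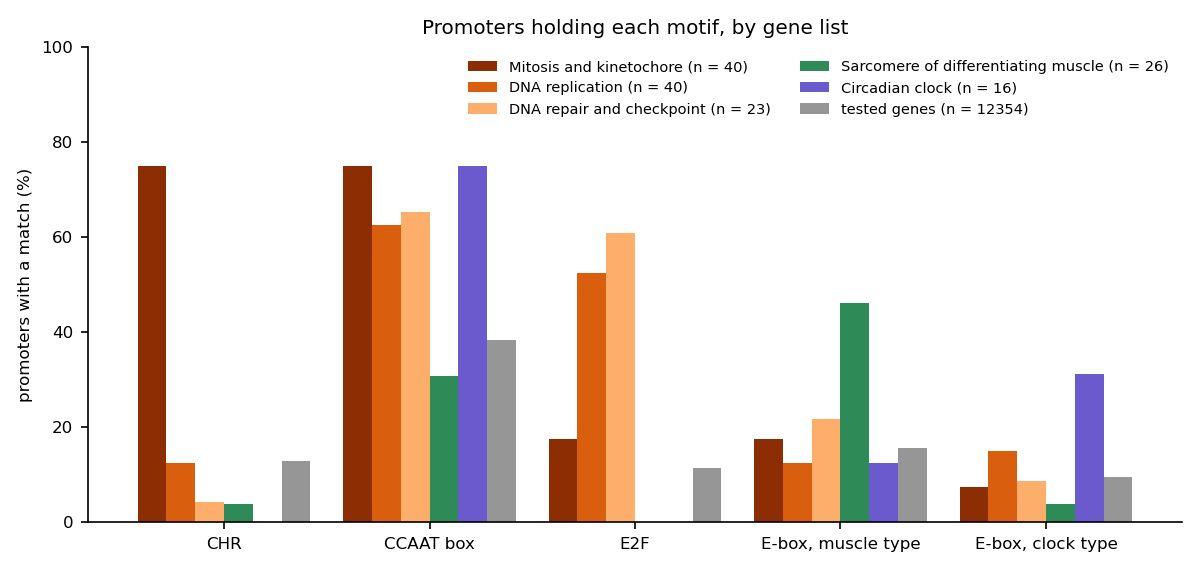
Share of promoters with at least 1 match to each motif, in percent, for 5 gene lists and for all tested genes, with the number of promoters in the legend. The CHR was in 75.0% of mitosis promoters and 12.9% of promoters of tested genes, and E2F motifs were in 52.5% of replication and 60.9% of repair promoters against 11.4%.

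Genes of energy metabolism encoded in the nucleus rose, and those encoded in mitochondria were not called. Of 51 nuclear genes of oxidative phosphorylation, 46 were higher and none lower, with a narrow range around the median of 1.11. The complex I subunit *Ndufs1* was at 96.7, 101 and 99.6 CPM in FiMuSCs and 164, 260.5 and 216 CPM in AMuSCs (1.11, 0.00526). The ATP synthase subunit *Atp5a1* went from 586, 585 and 604 CPM to 1036, 1749 and 1268 CPM. In both, FiMuSC libraries were nearly equal and all AMuSC libraries were above them, replicate 2 most. The mitochondrial transcript *mt-Co1*, a subunit of complex IV, was at 8639, 7578 and 7256 CPM and 9158, 6477 and 9253 CPM, and none of the 13 mitochondrial genes was called by edgeR (median −0.14, 2 lower at an unadjusted p under 0.05 and 2 lower from DESeq2). Glycolysis and glucose uptake had 13 of 26 genes higher and 2 lower. *Eno3*, muscle enolase, rose from 44.8, 37.9 and 44.1 CPM to 211, 529 and 441 CPM, and *Pkm*, pyruvate kinase, from 789.7, 739.7 and 736 CPM to 1659, 2877 and 2161 CPM. *Hk2*, hexokinase 2, was at 7.94, 83.2 and 102 CPM in FiMuSCs and 24.8, 18.2 and 20.8 CPM in AMuSCs, so that FiMuSC replicate 1 lay below every AMuSC library and the other FiMuSCs above (−1.60, 0.218). Fatty acid uptake and oxidation had 11 of 26 genes higher and 2 lower, and mitochondrial translation and biogenesis 16 of 28 higher and none lower (9 to 10 without FiMuSC replicates 1 or 2 or AMuSC replicates 2 or 3).

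Growth machinery did not move as a block. In the proteasome, 28 of 31 subunit genes were higher (15 without FiMuSC replicate 1 or 2), with a median of 0.87, for example *Psma1* from 55.2, 55.0 and 55.5 CPM to 96.6, 145 and 104 CPM. In the spliceosome 19 of 34 were higher (8, 7 and 12 without FiMuSC replicate 1, FiMuSC replicate 2 or AMuSC replicate 3), and among translation factors and tRNA ligases 15 of 44, with none lower in either. The latter count was 6, 6 and 7 without FiMuSC replicate 1, FiMuSC replicate 2 or AMuSC replicate 3, and 29 without AMuSC replicate 1. Ribosome biogenesis had 6 of 41 genes higher, a share below the 15.5% of all genes, and between 1 and 13 when any 1 library was left out. Its member *Npm1*, nucleophosmin, rose from 434, 486 and 555 CPM to 930.4, 1524 and 1211 CPM (1.31), while *Fbl*, fibrillarin, was at 66.8, 82.3 and 84.8 CPM and 82.6, 144 and 114 CPM (adjusted p = 0.104). Of 74 ribosomal protein genes 1 was higher and 1 lower. *Myc*, the growth regulator, fell from 102, 166 and 149 CPM to 48.8, 47.1 and 52.7 CPM, with no overlap (−1.49, 0.0021).

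Immediate early genes and inducible heat shock genes were at very high levels in FiMuSCs and lower in AMuSCs. *Fos*, a subunit of AP-1, was at 5735, 3574 and 2917 CPM in FiMuSCs and 1264, 494 and 564 CPM in AMuSCs (−2.40, 0.00838). Its partners *Jun* and *Junb* fell from 4253, 2948 and 2426 CPM to 813, 501 and 562 CPM and from 2309, 2319 and 1843 CPM to 605, 315 and 314 CPM. AMuSC replicate 1 was the highest AMuSC library in all 3, and no group overlapped the other. Over the list, 18 of 30 immediate early genes were lower and none higher, with a median of −1.96. The exact searched forms of the serum response (CArG) and cyclic AMP response (TGACGTC) elements were not in the promoter windows of *Fos* and *Fosb*. *Hspa1a*, the inducible HSP70, was at 6055, 6631 and 6807 CPM in FiMuSCs and 302, 119 and 619.6 CPM in AMuSCs, which is −4.23 on the log2 scale with a standard error of 0.600 (adjusted p = 0.00369). Its co-chaperone *Dnajb1* fell from 676, 697 and 647 CPM to 51.1, 52.5 and 77.5 CPM and the small heat shock protein *Hspb1* from 616, 628 and 631 CPM to 55.6, 83.8 and 93.2 CPM. The FiMuSC libraries lay close together in these 3 genes, and every AMuSC library was far below them. *Hspd1*, the mitochondrial HSP60, and subunits of the cytosolic chaperonin CCT rose, *Hspd1* by 1.46, so that the 24 chaperones split into 11 higher and 8 lower (5 and 7 without FiMuSC replicate 1 or 2, and 6 and 6 without AMuSC replicate 3). Of 27 genes of the unfolded protein and integrated stress responses, 16 were higher and 2 lower. Both groups went through enzymatic dissociation and a sort, and the part of these steps in the levels cannot be told apart from that of the state.

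Genes of the circadian clock were lower in 13 of 19 and higher in none, with a median of −1.28. *Nr1d1*, the nuclear receptor REV-ERBα, fell from 301, 218 and 219.8 CPM to 39.9, 37.5 and 47.5 CPM (−2.56, 0.000197). *Per1*, a repressor of the clock, fell from 257, 414 and 399 CPM to 99.8, 84.7 and 116 CPM (−1.83, 0.00156). FiMuSC libraries were above AMuSC libraries in both. Their activator *Arntl* (BMAL1) was at 28.9, 33.8 and 29.8 CPM and 23.6, 24.7 and 24.0 CPM (adjusted p = 0.0886). The time of day of collection is not given in the sources used here.

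**Figure D4:**
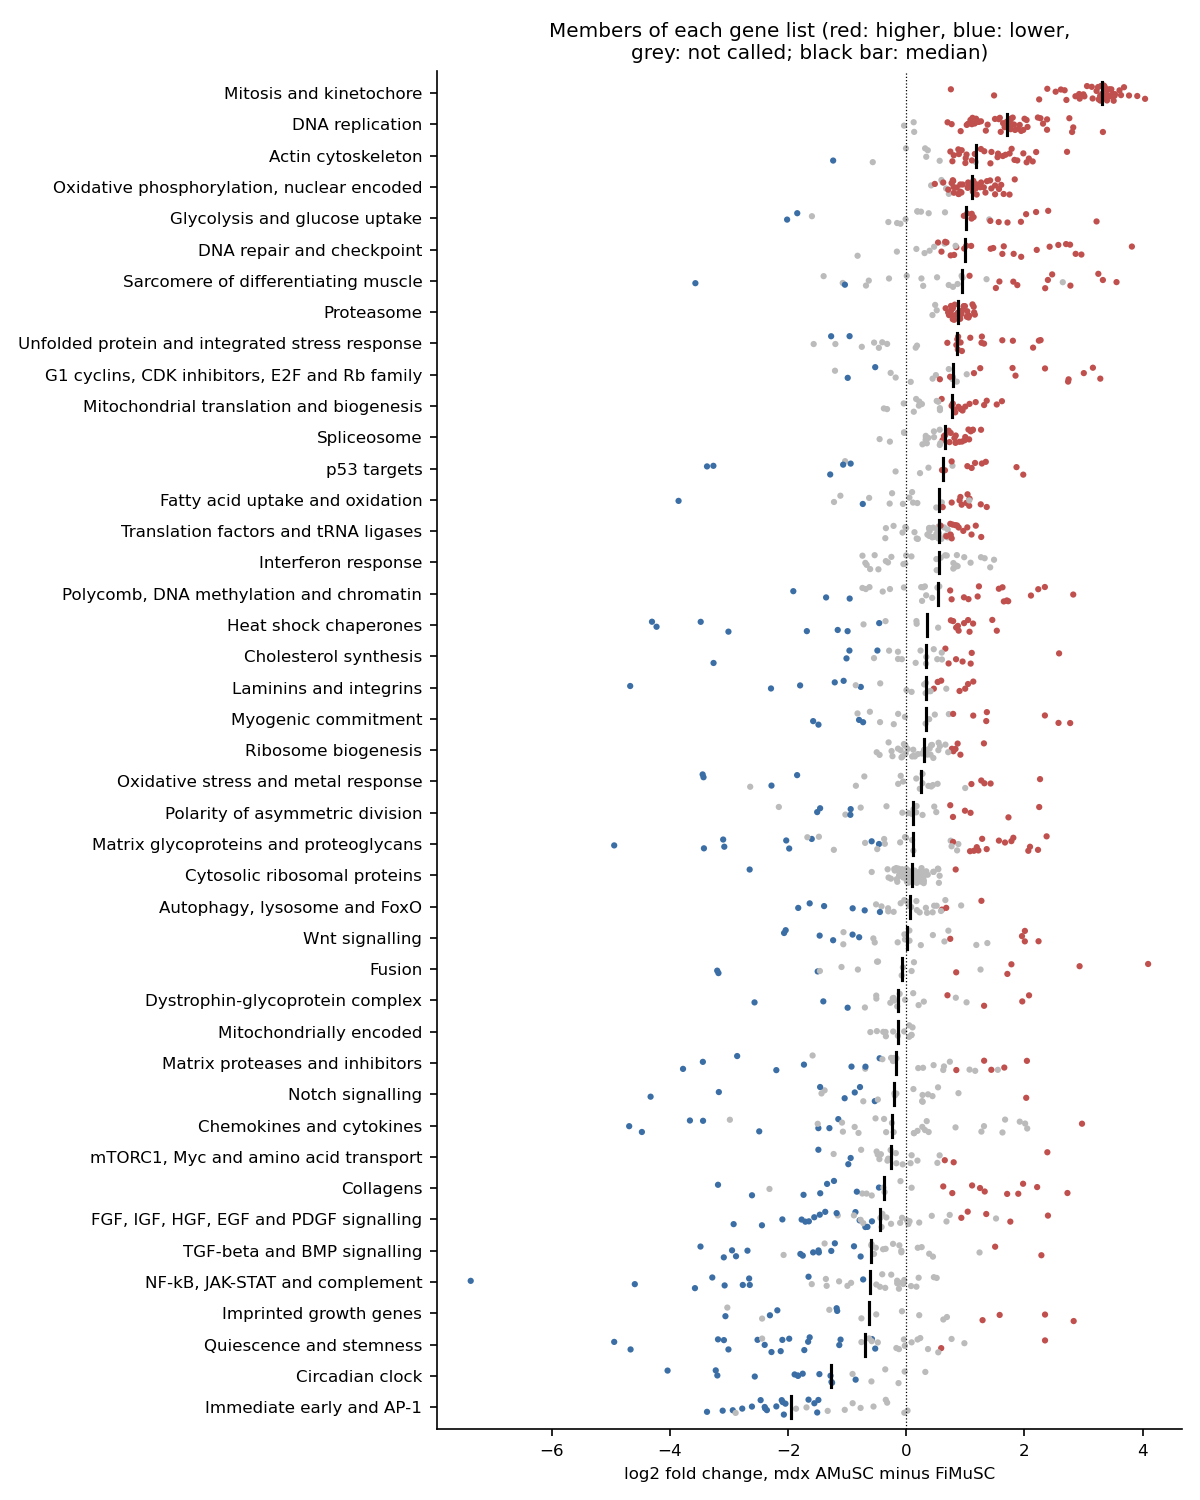
Log2 fold change of AMuSCs against FiMuSCs for each tested member of 43 gene lists, ordered by the list median (black bar), with members called higher in red, called lower in blue and not called in grey. All 48 mitosis genes lie above 0 with a median of 3.31, and the immediate early list is the lowest, with a median of −1.96 and 18 of 30 members called lower.

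In the signalling pathways of the niche more genes were lower than higher. TGF-beta and BMP signalling had 14 of 33 genes lower and 2 higher. *Bmp4* fell from 251, 186 and 151 CPM to 14.9, 18.1 and 19.6 CPM and *Bmp6* from 418, 351 and 299.7 CPM to 51.2, 43.4 and 50.3 CPM, log2 fold changes of −3.48 and −2.88 (adjusted p = 0.000163 and 0.000143), and *Id1*, a target gene of BMP signalling, fell too (−1.49). *Tgfb1* rose from 29.7, 37.3 and 44.1 CPM to 137, 108 and 69.7 CPM, highest in AMuSC replicate 1. Growth factor pathways had 15 of 39 genes lower and 5 higher (9 and 3 without FiMuSC replicate 2). *Met*, the receptor of hepatocyte growth factor, rose from 172, 130.0 and 104 CPM to 353, 503 and 518 CPM, whereas the FGF receptor *Fgfr1* fell from 947, 1125 and 1079 CPM to 284, 320.1 and 361 CPM. *Igf2* fell (−1.18), and *Igfbp5*, a binding protein of insulin-like growth factors, rose from 942, 657 and 524 CPM to 1718, 2167 and 1538 CPM (1.35). In Notch signalling 7 of 23 genes were lower and 1 was higher (3 and 4 lower without FiMuSC replicates 2 and 3), the higher one being *Hes6*, an antagonist of HES1 in differentiating cells (2.03). The Notch target *Heyl* was at 521, 506 and 425 CPM and 621, 756 and 495 CPM and was not called (0.211). *Dll4* and *Notch4*, both also expressed by endothelial cells, were among the lower ones (−4.33 and −3.17). The call of *Dll4* ended without FiMuSC replicate 1, 2 or 3 or AMuSC replicate 2 or 3 (adjusted p up to 0.103). Wnt signalling had 5 of 26 genes higher and 6 lower, and the polarity genes of asymmetric division 6 of 23 higher and 4 lower (3 and 2 without FiMuSC replicate 2).

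Genes of the extracellular matrix changed in both directions. Of 26 collagen genes 10 were higher and 8 lower. The fibrillar chain *Col1a2* rose from 921, 1139 and 965 CPM to 3831, 5016 and 3059 CPM (1.98, 0.0014) and *Col1a1* from 191, 192 and 169 CPM to 558, 526 and 299 CPM (1.33, 0.00784). The basement membrane chain *Col4a1* fell from 976, 1041 and 1020.1 CPM to 392, 286 and 232 CPM (−1.74). The groups did not overlap in any of the 3. *Col1a1* is also a marker of fibro-adipogenic progenitors, whose proteoglycan *Dcn* fell from 40.1, 32.7 and 40.3 CPM to 2.63, 5.30 and 5.44 CPM in the same libraries. Which cells the *Col1a1* RNA came from was not tested. *Col6a3* of the pericellular network rose by 2.21, and *Postn*, periostin, from 102, 173 and 182 CPM to 766, 754 and 431 CPM (2.09). Over matrix glycoproteins and proteoglycans 15 of 40 were higher and 9 lower, over laminins and integrins 7 of 24 and 6 (3 and 5 without FiMuSC replicate 2 or 3), and over matrix proteases and their inhibitors 5 of 29 and 8 (2 and 4 without FiMuSC replicate 2, 3 and 4 without AMuSC replicate 2). The gelatinase *Mmp2* fell from 209, 266 and 243 CPM to 84.9, 80.7 and 50.7 CPM (−1.73). Genes of the actin cytoskeleton rose in 29 of 37 and fell in 1, with a median of 1.18.

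*Dmd*, which carries the *mdx* mutation, was still transcribed in FiMuSCs and fell after injury, from 158, 171 and 166 CPM to 38.1, 18.7 and 26.7 CPM (−2.57, 0.000655). The groups were separated. Among 22 genes of the dystrophin-glycoprotein complex 4 were higher and 3 lower. Its member *Sgca*, α-sarcoglycan, fell from 44.0, 39.9 and 34.7 CPM to 20.0, 21.7 and 17.9 CPM (−0.99), whereas *Utrn*, utrophin, the homologue of dystrophin, was at 350.4, 312 and 291 CPM and 200.5, 208 and 263 CPM (−0.51, 0.055).

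Some inflammatory and acute phase genes were lower in AMuSCs, in part with a split among the FiMuSC libraries, and most were not called. Of 32 genes of NF-kB, JAK-STAT and complement, 10 were lower and none higher (6 without FiMuSC replicate 2 and 19 without AMuSC replicate 1), and of 35 chemokines and cytokines 8 were lower and 1 higher (5 and 0 without FiMuSC replicate 2). *Cebpd*, a transcription factor of the acute phase, fell from 351, 807 and 669 CPM to 29.5, 17.4 and 28.7 CPM (−4.59, 0.000422). The neutrophil chemokine *Cxcl1* fell from 102, 186 and 165 CPM to 17.7, 6.93 and 11.2 CPM and the suppressor *Socs3* from 1203, 1029 and 743 CPM to 439, 242 and 263 CPM. None of these overlapped between groups. *Serpina3n*, a serine protease inhibitor of the acute phase (chromosome 12, 104406729 to 104414329), was at 11.3, 330.0 and 440.0 CPM in FiMuSCs and 1.29, 1.31 and 2.09 CPM in AMuSCs (−7.37, 0.0154). All AMuSC libraries were below, but FiMuSC replicate 1 stood nearer to them than to the other FiMuSCs. The call of *Serpina3n* ended without FiMuSC replicate 2 (adjusted p up to 0.0545). Metallothionein *Mt1* showed the same split, at 281, 1333 and 1430.1 CPM and 84.4, 113 and 84.9 CPM (−3.43, 0.0112). Of 30 interferon response genes none was called by edgeR, with 2 higher and 1 lower at an unadjusted p under 0.05 and 3 higher and 1 lower from DESeq2, and without AMuSC replicate 1 edgeR called 6 lower, and without AMuSC replicate 3 it called 3 higher.

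Among imprinted genes 4 of 18 were higher and 5 lower, so that the list had no common direction. *Mest* rose from 279, 399.7 and 319 CPM to 2137, 2956 and 2012 CPM (2.83, 0.000354) and the noncoding RNA *H19* from 358, 311 and 313 CPM to 668, 1048 and 685 CPM (1.29), while *Dlk1* fell from 3.81, 3.70 and 4.02 CPM to 0.971, 0.806 and 0.760 CPM (−2.18). *Ezh2*, the histone methyltransferase of Polycomb, rose from 27.9, 32.6 and 31.5 CPM to 83.4, 101 and 100.2 CPM (1.63), with 15 of 32 genes of Polycomb, DNA methylation and chromatin higher and 3 lower. In the remaining lists, cholesterol synthesis had 7 of 24 genes higher and 4 lower (1 and 2 without FiMuSC replicate 2, and 3 to 5 higher and 2 to 3 lower without FiMuSC replicates 1 or 3 or AMuSC replicate 2), and autophagy, lysosome and FoxO 3 of 30 higher and 6 lower (1 and 3, and 2 and 3, without FiMuSC replicates 2 and 3). Those of mTORC1, Myc and amino acid transport had 3 of 23 higher and 3 lower (5 and 5 without AMuSC replicate 1), and those of oxidative stress and metals 5 of 24 and 4.

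The 12 largest increases held members of the lists above and genes outside them. Beside *Ccnb1*, *Plk1*, *Nek2* and *Mymx* they included *Trim66*, a chromatin protein, at 0.732, 0.920 and 0.487 CPM and 6.80, 21.1 and 25.2 CPM (4.63, 0.00161), and *Tubb3*, a tubulin best known from neurons, at 1.62, 1.17 and 1.28 CPM and 12.3, 36.5 and 31.2 CPM (4.30). *Nptx1*, a neuronal pentraxin, *Msln*, mesothelin, *Cavin4*, the muscle caveolar protein, and the ligand *Wnt7b* rose by 4.23, 4.11, 3.94 and 3.93. Of the 12 largest decreases, 6 were more than 3-fold lower in FiMuSC replicate 1 than in both other FiMuSCs, and in 5 that library was the highest. *Zbtb16*, a zinc finger factor, belonged to the first kind, at 13.5, 184 and 320.2 CPM and 3.11, 2.18 and 6.20 CPM (−5.49, 0.0235), as did *Crispld2*, at 17.3, 64.5 and 86.1 CPM and 1.80, 0.685 and 1.83 CPM (−5.28, 0.00563). The call of *Zbtb16* ended without FiMuSC replicate 2 or 3 or AMuSC replicate 2 (adjusted p up to 0.0745). *Alpl*, tissue-nonspecific alkaline phosphatase, was even across FiMuSCs, at 17.1, 13.0 and 12.8 CPM against 0.243, 0.141 and 0.363 CPM (−5.82, 0.00018). *Igha*, the heavy chain of IgA and a product of plasma cells, went from 45.5, 12.9 and 14.4 CPM to 0.142, 0.443 and 0 CPM (−6.97).

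The *mdx* response was smaller than the WT response in many of the same genes. In 1 fit over the 12 sorted libraries of both genotypes, the difference of the 2 responses was called for 3189 of 21086 genes (15.1%), of which 1717 had the higher value in *mdx*. Among the genes called higher in *mdx*, the *mdx* value was below the WT value in 615 and above it in 102 of 3047. Among those called lower, the *mdx* value was above the WT value in 588 and below it in 63 of 2308. The count of 3189 was 1813, 1954 and 2033 without WT FiMuSC replicate 3, WT AMuSC replicate 1 and WT AMuSC replicate 3, and 1793, 1803 and 4878 without *mdx* FiMuSC replicate 2, *mdx* FiMuSC replicate 3 and *mdx* AMuSC replicate 2. From here on, levels are CPM scaled over these 12 libraries. In DNA replication 37 of 49 members were called with the lower value in *mdx*, and in mitosis 6 of 48, with list medians of 1.72 in *mdx* and 2.88 in WT for replication and 3.32 and 4.27 for mitosis. *Mcm5* rose by 2.07 in *mdx* and 3.57 in WT, a difference of −1.50 (standard error 0.212, adjusted p = 0.00155), and was at 26.7, 22.5 and 20.8 CPM in WT FiMuSCs and 283, 239.8 and 305 CPM in WT AMuSCs. In *mdx* it was at 29.0, 33.0 and 31.6 CPM and 106, 153 and 133 CPM, above the WT level before injury and below it afterwards. For *Ccnb1* the difference was −0.85 and was not called (0.412). Ribosome biogenesis had 28 of 41 members called with the lower value in *mdx*, at medians of 0.32 and 1.36. Nuclear genes of oxidative phosphorylation had 2 of 51, at medians of 1.13 and 1.24.

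Genes of the stem cell state and its niche fell less in *mdx* than in WT. On the quiescence list 21 of 36 members had the higher value in *mdx* and none the lower, at medians of −0.67 in *mdx* and −2.05 in WT. *Pax7* had log2 fold changes of −1.10 in *mdx* and −2.04 in WT (difference 0.94, adjusted p = 0.015), and *Calcr* of −3.07 and −5.02 (difference 1.96, 0.00564). In 64 genes the responses had opposite signs with an increase in *mdx* and a decrease in WT, each called in its own genotype, and in 28 the reverse. *Col1a1* was one of the former, at 185, 186 and 164 CPM in *mdx* FiMuSCs and 553, 515 and 292 CPM in *mdx* AMuSCs against 112, 50.8 and 115 CPM and 22.0, 20.6 and 18.9 CPM in WT. The *mdx* libraries were above the WT libraries in both states, by more after injury, with a difference of 3.52 between the log2 fold changes (adjusted p = 0.000842). The collagen *Col6a1* and the Notch target *Heyl* fell in WT, at −2.19 and −2.33, and were at 0.79 and 0.38 in *mdx* (adjusted p of the difference = 0.000592 and 0.000642). Collagens had 15 of 26 members with the higher value in *mdx* and 3 with the lower. Among genes whose libraries did not overlap between FiMuSCs and AMuSCs in either genotype, leaving out predicted loci and genes whose mean log2 CPM was under 2, the 5 largest differences upwards were in *Cacna2d4*, *Igkc*, *Espnl*, *Kcnma1* and *Tac4* (5.24 to 4.17) and those downwards in *Serpina3n*, *Ereg*, *Bend6*, *Runx2* and *Arhgef28* (−8.37 to −3.22). Several were near the floor in 1 genotype. *Cacna2d4*, *Espnl* and *Tac4* had means of 2.29, 2.07 and 0.847 CPM in *mdx* FiMuSCs against 28.6, 28.3 and 20.4 CPM in WT FiMuSCs. *Ereg* had means of 0.165 and 0.641 CPM in WT FiMuSCs and AMuSCs. *Igkc* is an immunoglobulin gene. *Kcnma1*, a calcium-activated potassium channel, was at 9.51, 9.28 and 8.10 CPM in *mdx* FiMuSCs and 3.68, 1.95 and 2.80 CPM in *mdx* AMuSCs against 73.8, 99.5 and 105 and 1.46, 1.30 and 1.76 CPM in WT, a smaller decrease from a lower level. *Serpina3n* was at 1.07, 1.21 and 3.45 CPM in WT FiMuSCs and 3.77, 4.10 and 3.73 CPM in WT AMuSCs, without the levels over 300 CPM of *mdx* FiMuSC replicates 2 and 3. *Ptprc*, among the markers that set *mdx* AMuSC replicate 1 apart, differed in this comparison as well. It was at 0.150, 0.147 and 0.769 CPM in WT AMuSCs and 185, 4.97 and 18.4 CPM in *mdx* AMuSCs. The difference was called with the higher value in *mdx* for 3 of 13 markers of leukocytes in general and 6 of 10 of neutrophils. The neutrophil medians were −0.30 in *mdx* and −6.705 in WT. The same call was made for 6 of 12 markers of pericytes and smooth muscle and 4 of 15 of fibro-adipogenic progenitors. For Schwann cells, lymphocytes and endothelial cells it was made for 2 of 10, 1 of 6 and 1 of 14. Of 19 markers of mature myofibres 1 had the higher value in *mdx* and 3 the lower. The difference was called for 0 of 19 macrophage markers, at list medians of 1.08 in *mdx* and −1.75 in WT.

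**Figure D5:**
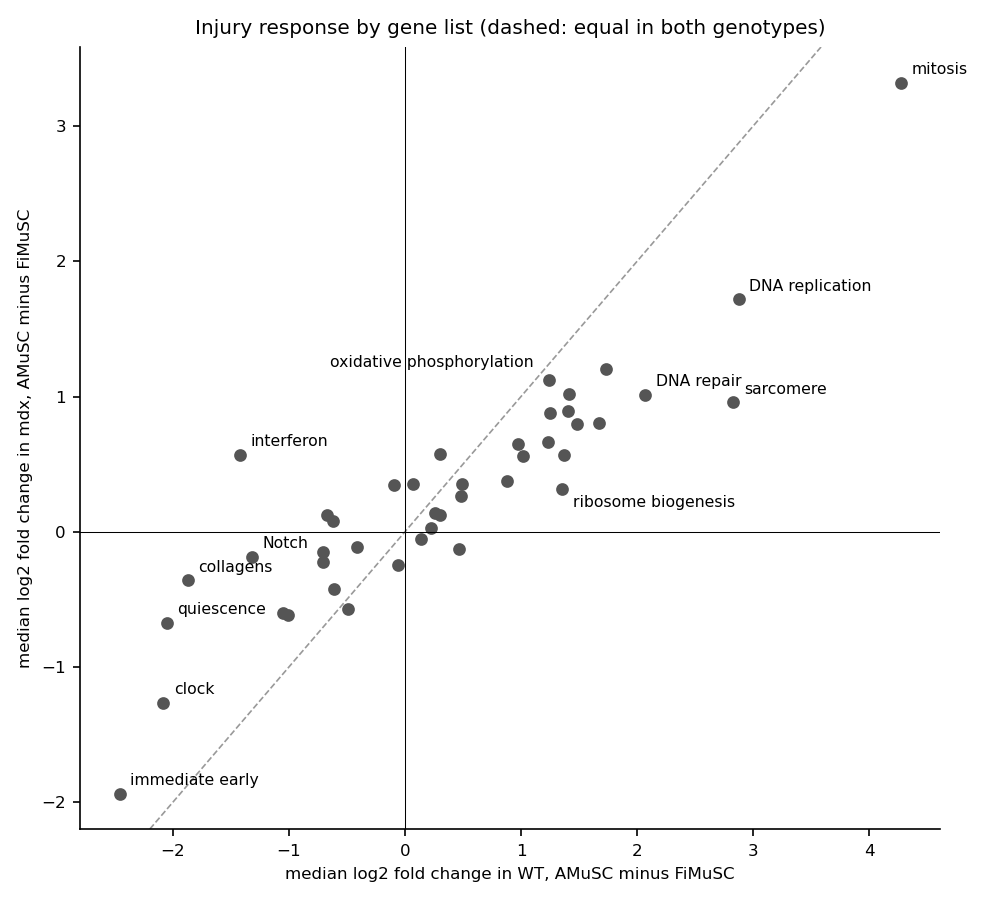
Median log2 fold change of AMuSCs against FiMuSCs over the members of each of 43 gene lists, with WT on the x axis, *mdx* on the y axis and equal responses on the dashed line. DNA replication lies at 2.88 in WT and 1.72 in *mdx*, quiescence at −2.05 and −0.67, and nuclear oxidative phosphorylation near the line at 1.24 and 1.13.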

How the data were processed

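Bulk RNA-seq of sorted MuSCs was used from the 6 *mdx* libraries and, for the difference between genotypes, 6 WT libraries. The authors deposited, per transcript, its effective length, its TPM value and its expected count (reads as estimated by the quantifier). GRCm38, DESeq2 and Salmon 0.13.1 are listed in the submitters' processing notes. The library's strand setting is not given in the sources used here. The deposited TPM values served only to rank the most abundant genes, which are not described, and the 12 cultured libraries were not used here.

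Expected counts were summed per gene and rounded. Of 53392 genes, 53355 were matched to GENCODE M21. Genes kept by filterByExpr entered edgeR 4.0.16 (R 4.3.3) with TMM scaling (quasi-likelihood, robust, two-sided, Benjamini-Hochberg adjustment over all genes tested). The fit was first tested on simulated counts. Library totals were 39619889 to 56673199 counts, and each group had 3 libraries.

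Gene lists, members and rules were chosen with earlier results of these data known. Genes named were the 12 largest changes each way (adjusted p under 0.05, no overlap, mean log2 CPM of at least 2, no predicted locus), anchor genes and up to 4 further members of each list, genes the study names, the 5 largest genotype differences each way under the same conditions (no overlap in either genotype), and list members with such a difference. Other names in the text, among them *Bub3*, *Orc6*, *Pold3*, *Dll4* and *Notch4*, were chosen after their values were seen, and not all genes that the rule allows are given. Promoter windows were the first listed per gene, for 12354 of the genes tested. Alternatives were RLE scaling, library totals, no filter, a transcript length offset, a replicate block, DESeq2 1.42.0, leaving out each library, and 1 fit of 12 libraries. The labels do not say whether replicate numbers pair the groups. Deviations of same-numbered libraries from their group means correlated at −0.11, −0.03 and −0.08, and those of libraries with different numbers at −0.12 to 0.20. With 3 libraries a group these values cannot exclude a shared litter or day, under these or other numbers.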

Additional observations from a re-analysis of the deposited data

Results flagged for a closer look

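For 48 of the 121 genes named and tested, the injury response differed between *mdx* and WT by the interaction term of the 12-library fit (edgeR, two-sided, adjusted p under 0.05, 3 libraries a group). Over all 21086 genes of that fit the difference was called for 3189 (15.1%). Some of the 121 genes were named for this difference, so their share is not a result about them. Values are the log2 fold change in *mdx* minus that in WT. In genes of DNA replication, repair and the cell cycle the *mdx* value was the lower one, at −2.03 for *Cdc6*, −2.40 for *Timeless*, −1.50 for *Mcm5*, −1.29 for *Pcna*, −1.62 for *Chek1*, −1.36 for *Brca1*, −1.44 for *E2f7*, −0.66 for *E2f1*, −1.12 for *Aurkb* and −2.23 for *Cdkn1a*. The same held for the growth genes *Npm1* (−1.20) and *Fbl* (−0.76), the chromatin gene *Ezh2* (−0.96), the fusion gene *Myof* (−2.43) and the chaperone *Hspd1* (−1.07). It was not general to fusion genes and chaperones. Of 18 fusion genes 2 were called with the lower value in *mdx* and 1 with the higher, and of 24 chaperones 2 with the lower. The *mdx* value was also the lower one in some genes with higher levels in *mdx* FiMuSC replicates 2 and 3 than in replicate 1, at −8.37 for *Serpina3n*, −4.65 for *Hk2*, −4.39 for *Ereg* and −2.82 for *Mt1*. *Zbtb16* and *Crispld2*, with the same split, had differences of 0.13 and 0.08 that were not called. Others with a lower *mdx* value were among the largest differences of genes with no overlap between states in either genotype, at −3.80 for *Bend6*, −3.30 for *Runx2* and −3.22 for *Arhgef28*. In genes of the stem cell state the *mdx* value was the higher one, at 0.94 for *Pax7*, 1.96 for *Calcr*, 1.48 for *Chrdl2*, 1.56 for *Spry1*, 2.51 for *Col15a1*, 1.75 for *Myf5* and 1.37 for *Hdac11*. The same held for genes of matrix and signalling, at 3.52 for *Col1a1*, 2.99 for *Col6a1*, 2.01 for *Col4a1*, 3.63 for *Mmp2*, 2.72 for *Heyl*, 1.96 for *Igfbp5*, 1.93 for *Bmp6* and 0.64 for *Fgfr1*. It also held for the dystrophin complex and the clock, at 1.11 for *Dmd*, 0.78 for *Utrn*, 1.75 for *Sgca*, 1.14 for *Arntl* and 1.15 for *Per1*. The remaining ones with a higher *mdx* value were named as the 5 largest among genes with no overlap between states in either genotype, at 5.24 for *Cacna2d4*, 4.34 for *Igkc*, 4.29 for *Espnl*, 4.26 for *Kcnma1* and 4.17 for *Tac4*. *Cacna2d4*, *Espnl* and *Tac4* were at a low level in both *mdx* states. *Ptprc* had 6.25 (standard error 1.76, adjusted p = 0.0384), and the *mdx* AMuSC libraries held 185, 4.97 and 18.4 CPM on the scale of the 12 libraries.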

How the results depend on the processing

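The count of 5357 genes in the *mdx* injury response was 5394 with RLE size factors, 5524 with library totals only, 4914 with no filter on low counts, 4143 with a transcript length offset, 6545 with DESeq2 and 7699 in the 12-library fit. It ranged from 2663 to 5919 when 1 library was left out, and without FiMuSC replicate 2 the calls shared with the full set numbered 2629. No gene was called in opposite directions under any of these alternatives. Higher genes made up 54.4% to 58.7% of calls, except for 64.9% without FiMuSC replicate 3. The difference between genotypes was called for 1786 genes with the length offset, for 2526 to 4774 under the other scalings, filter and tool, and for 1793 to 4878 when 1 library was left out. The cause of these shifts was not tested.

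The replicate block gave 3770 genes for the response and 2314 for the difference. Deviations of same-numbered libraries did not correlate positively, which cannot exclude a shared litter or day with so few libraries. Under the block 4 of 14 endothelial and 4 of 10 Schwann markers were lower.

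Of the genes named, 3 changed sign, none of them called. *Orc6* was at −0.087 with the length offset and at −0.021 to 0.27 with a library left out. *Ptprc* was at −0.62 under the block and at −1.52 to 1.58 with a library left out, the lowest without AMuSC replicate 1. *Timeless* was at 0.0084 under the block and at −0.29 to 0.19 with a library left out.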
